A study of Sus scrofa with 8 samples.

Results

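The genes described here are the nuclear genes of oxidative phosphorylation, measured as messenger RNA in 8 pig libraries. They were chosen by symbol alone: every gene whose pig symbol starts with NDUF, UQCR, SDH or ATP5, or is COX4 to COX8 with a suffix, with the mitochondrially encoded genes left out. This gave 73 of the 31907 genes in the count files, of which 15029 carried a symbol. They comprised 64 structural subunits, 8 assembly factors and the ATP synthase inhibitor ATP5IF1. By complex, the structural subunits numbered 29 for complex I, 4 for complex II, 6 for complex III, 15 for complex IV and 10 for complex V, with NDUFA4 and NDUFA4L2 placed in complex IV. A further 10 genes of the same naming, among them COX6C, UQCRB, NDUFA1 and NDUFA13, were not analysed here.

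The animals were Guizhou minipigs aged 8 months. The study rebuilt the bladder from ileum, the last stretch of the small intestine, and concerned the use of an animal's own peritoneum to replace the intestinal mucosa of that neobladder. The 4 groups held 2 libraries each: bladder mucosa of the native organ (MNB), normal peritoneum (NP), neobladder mucosa of the experimental group (MN-Exp) and neobladder mucosa of the control group (MN-Ctrl). All groups shared strain and age. The labels give neither the lining of the control neobladder, nor the time since surgery, nor whether the 2 libraries of a group came from separate animals, so every p-value measures only the spread between these samples.

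Oxidative phosphorylation passes electrons from NADH (complex I) or succinate (complex II) through complex III and cytochrome c to oxygen at complex IV, and the proton gradient so formed drives ATP synthesis at complex V. Complex II is wholly nuclear-encoded, while the other complexes join nuclear subunits to a few core subunits encoded in mitochondrial DNA. The absorptive epithelium of the small intestine is rich in mitochondria, which supply the sodium pump behind nutrient uptake.

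Libraries held 7.94 to 11.88 M counts. Levels are CPM, each count as a share of its library scaled by the trimmed mean of M-values (TMM), which sets the bulk of genes equal between libraries. The TMM factors were 0.839 and 0.45 in MN-Ctrl replicates 1 and 2 and 1.089 to 1.238 elsewhere, so MN-Ctrl values on this scale are raised most against plain library totals. The MN-Ctrl pair stood apart: its chi-square per degree of freedom between replicates was 306, against 26.1 to 37.2 in the other pairs. Summed over the 9 enterocyte markers measured (of 10 listed), MN-Ctrl had 44984 and 164426 CPM and the other libraries 169 to 844 CPM. FABP6 alone made up 31307 and 157311 CPM of the MN-Ctrl sums, and 6 of the 9 markers were lower in MN-Ctrl replicate 2 than in replicate 1, such as ANPEP at 5541 and 1028 CPM. Over 4 goblet cell markers MN-Ctrl had 11990.3 and 50536 CPM and the others 9.88 to 743, while MUC2 among them had 1242 CPM in MN-Ctrl replicate 1 and 291 in replicate 2. The 5 cell cycle markers measured (of 7) summed to 378 and 389 CPM in MN-Ctrl, 152 and 104 in MNB, 26.9 and 13.5 in MN-Exp and 28.9 and 15.6 in NP, and all 5 were called lower in MN-Exp than in MN-Ctrl. The 8 urothelial markers measured (of 9) summed to 9511 and 8661 CPM in MNB, 4084 and 7995 in MN-Exp, 3629.8 and 2008 in MN-Ctrl and 502 and 966 in NP. KRT20, which intestinal epithelium also expresses, made up 3565 and 1859 CPM of the MN-Ctrl sums, UPK1A was at 0 in MN-Ctrl replicate 1 and TP63 at 0 in MN-Ctrl replicate 2. The part of these cell types in the results that follow was not tested. Of the mesothelial markers only WT1 and CALB2 were measured: WT1 had 27.7 and 25.3 CPM in NP and at most 0.187 CPM elsewhere, and CALB2 was at 0 in every library. In whole tissue, fewer cells of a type and less RNA per cell cannot be told apart.

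The nuclear genes of oxidative phosphorylation took 1.07 and 1.32% of all counts in MNB, 1.38 and 1.34% in MN-Exp, 1.85 and 3.59% in MN-Ctrl and 0.791 and 0.719% in NP. Added up within each complex, scaled levels ran in the order NP, MNB, MN-Exp, MN-Ctrl in all 5 complexes. The complex I subunits summed to 2576 and 2984 CPM in MNB, 3380.3 and 3450.0 in MN-Exp, 4884 and 18081.5 in MN-Ctrl and 1778 and 1647 in NP. No 2 groups overlapped, and the 2 MN-Ctrl libraries differed more from each other than MN-Exp did from MNB. Complex II, which oxidises succinate, summed to 844 and 914 CPM in MNB, 1041 and 1059 in MN-Exp, 2279 and 3534 in MN-Ctrl and 661 and 658 in NP, and had the narrowest MN-Ctrl pair of the 5 complexes. Complex III, which passes electrons to cytochrome c, summed to 926 and 1129 CPM in MNB, 1317 and 1352 in MN-Exp, 2676 and 9404 in MN-Ctrl and 596 and 541 in NP. Complex IV, cytochrome c oxidase, summed to 2210.3 and 3009 CPM in MNB, 2943 and 3303 in MN-Exp, 5858 and 28595 in MN-Ctrl and 1704 and 1523 in NP. It was the one complex in which an MNB library lay above an MN-Exp library. Complex V, the ATP synthase, summed to 2451 and 2568 CPM in MNB, 3031 and 2849 in MN-Exp, 5979.7 and 19059.9 in MN-Ctrl and 1456 and 1358 in NP.

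**Figure D1:**
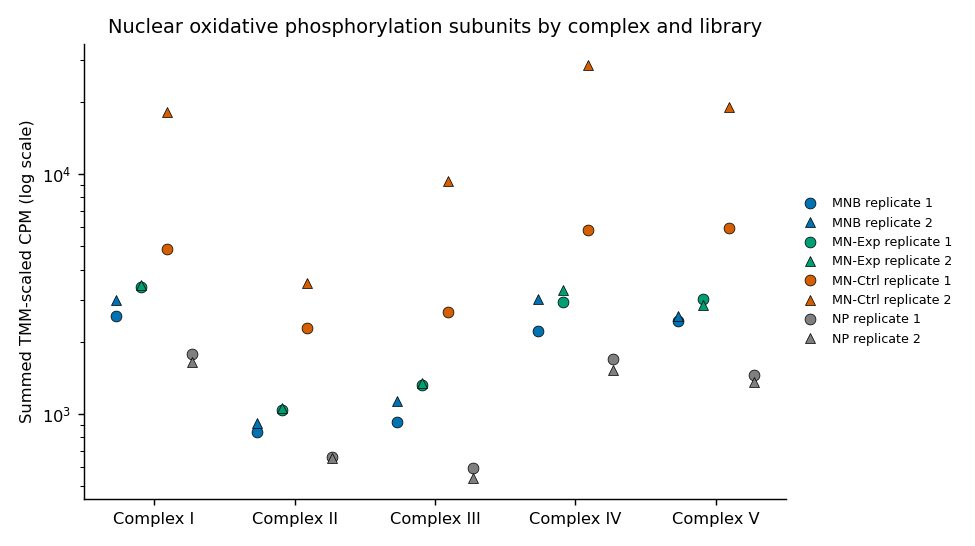
Summed TMM-scaled CPM (log axis) of the structural subunits of each complex in each library, with MNB, MN-Exp, MN-Ctrl and NP apart and replicate 2 as a triangle. In every complex both MN-Ctrl libraries lie above all others and both NP libraries below, and MN-Ctrl replicate 2 lies highest.

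As group means, MNB stood at 0.814, 0.837, 0.770, 0.836 and 0.854 times MN-Exp for complexes I to V, and NP at 0.501, 0.628, 0.426, 0.517 and 0.479 times MN-Exp. The MN-Ctrl pair did not give one common factor. Replicate 1 of MN-Ctrl stood at 1.43, 2.17, 2.01, 1.88 and 2.03 times the MN-Exp mean for complexes I to V, and replicate 2 at 5.29, 3.37, 7.05, 9.16 and 6.48 times. Both were higher in all 5 complexes, yet complex I was the least raised in replicate 1 and complex II the least raised in replicate 2. On plain library totals the same ratios were smaller: 1.07, 1.63, 1.51, 1.41 and 1.52 in replicate 1, and 2.13, 1.35, 2.83, 3.69 and 2.60 in replicate 2. With 2 libraries a group, sums were described and not tested.

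Tests were made gene by gene with edgeR over all 16549 genes that passed a low-count filter, and a gene was called at a Benjamini-Hochberg adjusted p under 0.05. Of the 73 genes, 70 passed the filter. NDUFB7, a complex I accessory subunit, had 0 counts in every library, where 3 counts, the limit a count of 0 allows, equal 0.224 to 0.561 CPM. Whether its reads were missed in counting was not tested, so this does not show that the gene was silent. COX6B2, the testis form of its subunit, had 0.403 and 0.298 CPM in MNB, 0.169 and 0.370 in MN-Exp, 0.109 and 0.748 in MN-Ctrl and 0.102 and 0.0890 in NP. COX7A1, the muscle form, had 0.0807 and 0 CPM in MNB, 0.254 and 0.741 in MN-Exp, 0 in both MN-Ctrl libraries and 0.102 and 0.267 in NP. Both were too low to test. Among the 70, the group means ran MN-Ctrl, MN-Exp, MNB, NP from high to low in 53 (75.7%, against 10.5% of all tested genes). MN-Ctrl was the highest group in 66 (94.3%, against 31.8%) and NP the lowest in 64 (91.4%, against 33.1%).

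Against MN-Ctrl, 40 of the 70 genes were lower in MN-Exp and 0 were higher, where 11.3% of all tested genes were called lower and 10.4% higher. The median log2 fold change was -1.75 over the 70 genes and 0.11 over all tested genes. Both MN-Exp libraries lay below both MN-Ctrl libraries in 56 of the 70, against 26.2% of all tested genes. By complex, the calls fell on 14 of 28 subunits tested in complex I, 3 of 4 in complex II, 6 of 6 in complex III, 8 of 13 in complex IV and 8 of 10 in complex V. The inhibitor ATP5IF1 was called as well, and none of the 8 assembly factors was, with adjusted p from 0.11 to 0.735 (edgeR) and 2 at an unadjusted p under 0.05. The median log2 fold changes of complexes I to V were -1.79, -1.70, -2.17, -2.33 and -2.36, and that of the assembly factors was -0.90. Without either MN-Exp library no gene of the 70 was called by edgeR (33 and 37 at an unadjusted p under 0.05, medians -1.78 and -1.77), where 10.9% and 7.81% of all tested genes were. Fitted on these 2 groups alone, 3 of the 70 were called lower, where 14.8% of all tested genes were called in either direction. On library totals alone 6 were called lower: UQCRQ, COX7A2, COX7B, ATP5MC1, ATP5MC3 and ATP5ME (median -0.79). That scale moved the median of all tested genes from 0.11 to 0.89, and the split of all calls from 1720 higher and 1864 lower to 2785 higher and 831 lower.

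**Figure D2:**
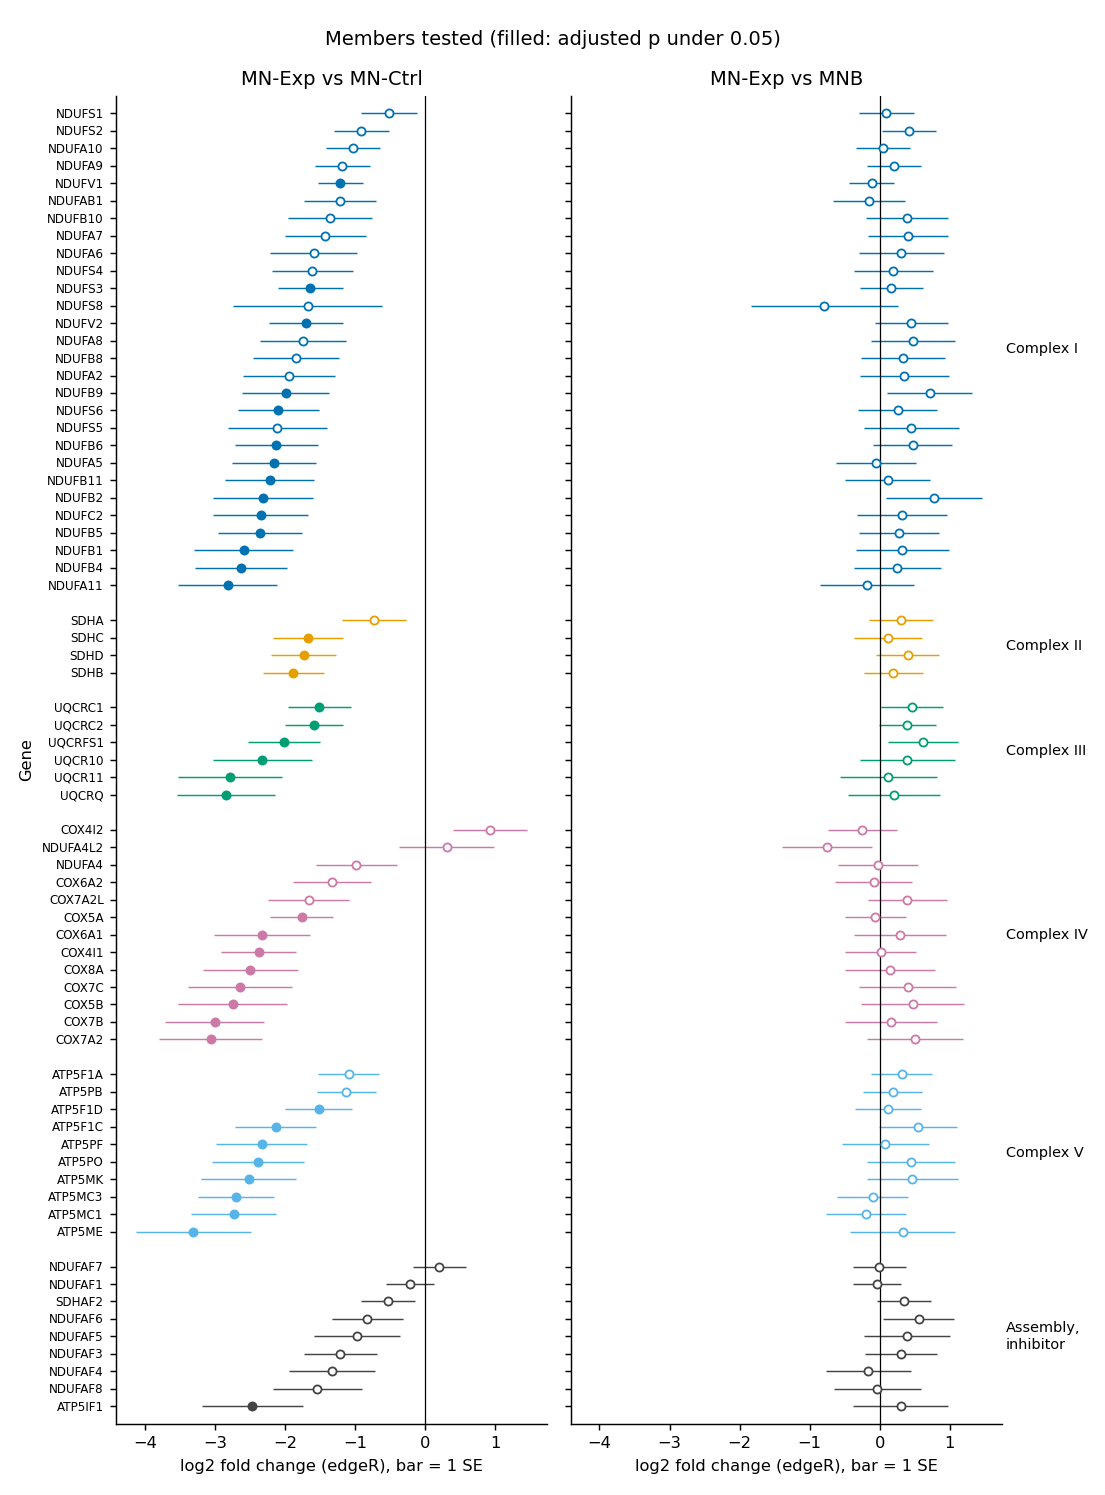
Log2 fold changes (edgeR, bars 1 SE) of the 70 genes tested, by complex, for MN-Exp against MN-Ctrl and MN-Exp against MNB; filled points have an adjusted p under 0.05. On the left 40 points are filled, all below 0, and on the right none is filled and the points lie between -0.79 and 0.78.

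Complex I takes electrons from NADH in an arm that projects into the matrix and pumps protons in an arm set in the inner membrane. NDUFB4 (ENSSSCG00000031913, chromosome 13, 139724145 to 139730492, Sscrofa11.1 in RefSeq), an accessory subunit of the membrane arm, had 129.8 and 166 CPM in MNB, 169.9 and 183 in MN-Exp, 367 and 1816 in MN-Ctrl and 126 and 119 in NP. Both MN-Ctrl libraries were above every other library, and NDUFB4 fell in MN-Exp against MN-Ctrl by 2.63 on the log2 scale (SE 0.66, edgeR adjusted p = 0.0184). NDUFB8 (ENSSSCG00000006166), another membrane arm subunit, had 162 and 211 CPM in MNB, 224 and 245 in MN-Exp, 311 and 1377 in MN-Ctrl and 92.3 and 106 in NP, and missed the threshold against MN-Ctrl (log2 fold change -1.85, SE 0.62, edgeR adjusted p = 0.0561). The complex I subunit furthest from 0 in this comparison was NDUFA11, also of the membrane arm, with 10.4 and 7.32 CPM in MN-Exp and 16.7 and 109 in MN-Ctrl (log2 fold change -2.82, SE 0.71, edgeR adjusted p = 0.0184). In the matrix arm, NDUFS1, which carries iron-sulfur clusters, had 124 and 112 CPM in MN-Exp and 214 and 123 in MN-Ctrl and was not called (log2 fold change -0.52, edgeR adjusted p = 0.374). NDUFV1, which binds NADH and flavin, had 40.2 and 35.4 CPM in MN-Exp and 90.0 and 84.8 in MN-Ctrl. It was called lower in MN-Exp (log2 fold change -1.21, SE 0.32, edgeR adjusted p = 0.024) with its MN-Ctrl libraries nearly level, although on library totals MN-Ctrl replicate 2 lay below MN-Exp (38.1 against 46.2 and 38.5 CPM).

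In complex II, SDHA is the flavoprotein that oxidises succinate, SDHB carries the iron-sulfur clusters, and SDHC and SDHD anchor both in the membrane. SDHA (ENSSSCG00000020686, chromosome 16, 79838442 to 79862956) had 297 and 296 CPM in MNB, 365 and 365 in MN-Exp, 829.9 and 383 in MN-Ctrl and 172 and 186 in NP. It was the complex II gene not called against MN-Ctrl (log2 fold change -0.73, edgeR adjusted p = 0.274), and here MN-Ctrl replicate 1 was the higher of its pair. SDHB (ENSSSCG00000020926, chromosome 6, 75648362 to 75678111) had 154 and 160.3 CPM in MNB, 193 and 166 in MN-Exp, 455 and 866 in MN-Ctrl and 131 and 132 in NP, and fell in MN-Exp against MN-Ctrl by 1.88 (log2, SE 0.44, edgeR adjusted p = 0.0126). SDHC (ENSSSCG00000030318, chromosome 4, 89135410 to 89169164) had 233 and 250.4 CPM in MNB, 245 and 278 in MN-Exp, 466 and 1196 in MN-Ctrl and 201 and 187 in NP (log2 fold change -1.67, SE 0.50, edgeR adjusted p = 0.0374). For SDHB and SDHC alike, every MN-Ctrl library lay above every other library. SDHD followed them, with 237 and 249 CPM in MN-Exp and 528 and 1089 in MN-Ctrl (log2 fold change -1.73, edgeR adjusted p = 0.0237).

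All 6 complex III genes of the naming rule, which leaves out the subunit cytochrome c1, were called lower in MN-Exp than in MN-Ctrl. UQCRC1 (ENSSSCG00000011356), a core protein on the matrix side, had 289.8 and 334 CPM in MNB, 434 and 423 in MN-Exp, 887 and 1556 in MN-Ctrl and 151 and 161 in NP (log2 fold change -1.51, SE 0.45, edgeR adjusted p = 0.0367). Its partner core protein UQCRC2 (ENSSSCG00000007845) had 109.6 and 133 CPM in MNB, 175 and 145 in MN-Exp, 346 and 612 in MN-Ctrl and 54.9 and 58.2 in NP (log2 fold change -1.58, SE 0.41, edgeR adjusted p = 0.0218). Both genes kept the 4 groups apart, from NP at the bottom to MN-Ctrl at the top. The Rieske iron-sulfur protein UQCRFS1 had 189 and 209.6 CPM in MN-Exp and 420.1 and 1183 in MN-Ctrl (log2 fold change -2.01, edgeR adjusted p = 0.0204). UQCRQ (ENSSSCG00000014289), a small membrane subunit, had 192 and 236 CPM in MNB, 224 and 269 in MN-Exp, 560.5 and 2985 in MN-Ctrl and 113 and 92.2 in NP. Its log2 fold change was -2.84 (SE 0.70, edgeR adjusted p = 0.0169), and MNB and MN-Exp overlapped.

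In complex IV the catalytic core is encoded in mitochondrial DNA, and the nuclear subunits surround it. COX5B (ENSSSCG00000008195, chromosome 3, 56630297 to 56632107), a zinc-binding subunit on the matrix side, had 371 and 558 CPM in MNB, 610.3 and 681 in MN-Exp, 1168 and 7511 in MN-Ctrl and 235 and 175 in NP. No 2 groups overlapped, although the MN-Ctrl libraries lay 6.43-fold apart. COX5B fell in MN-Exp against MN-Ctrl by 2.75 (log2, SE 0.78, edgeR adjusted p = 0.0313). The fold change was -0.93 without MN-Ctrl replicate 2 (edgeR adjusted p = 0.0447) and -1.60 on library totals (edgeR adjusted p = 0.0738), and the adjusted p ran from 1.48e-05 to 0.182 over the alternatives. COX5A (ENSSSCG00000024316), which sits beside COX5B on the matrix side, had 270.1 and 321 CPM in MNB, 282 and 283 in MN-Exp, 679.6 and 1235 in MN-Ctrl and 93.7 and 87.9 in NP (log2 fold change against MN-Ctrl -1.76, SE 0.45, edgeR adjusted p = 0.0192). In counts, COX5B stood at 6.08 times COX5A in MN-Ctrl replicate 2, at 1.72 times in MN-Ctrl replicate 1 and at 1.37 to 2.50 times in the 6 other libraries.

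COX4I1 (ENSSSCG00000029034), the common form of subunit 4, had 83.1 and 92.2 CPM in MNB, 97.0 and 80.0 in MN-Exp, 214 and 707 in MN-Ctrl and 69.7 and 63.4 in NP (log2 fold change against MN-Ctrl -2.38, SE 0.54, edgeR adjusted p = 0.0111). COX6A1 (ENSSSCG00000039265, chromosome 14, 40408600 to 40410810), the form found in most tissues, had 331 and 496 CPM in MNB, 444 and 571 in MN-Exp, 899 and 4197 in MN-Ctrl and 347 and 294 in NP (log2 fold change -2.33, SE 0.69, edgeR adjusted p = 0.0356). In both genes MN-Ctrl lay above all other libraries, and MNB and MN-Exp overlapped. The heart and muscle form COX6A2 (ENSSSCG00000036789) had 18.7 and 24.9 CPM in MNB, 22.5 and 18.6 in MN-Exp, 22.0 and 81.6 in MN-Ctrl and 20.3 and 35.1 in NP and was called in no comparison.

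COX7A2 (ENSSSCG00000004480, chromosome 1, 90696746 to 90703407), the widely expressed form of subunit 7A, had 113 and 151 CPM in MNB, 155 and 219.6 in MN-Exp, 471 and 2649 in MN-Ctrl and 87.4 and 57.5 in NP. Its log2 fold change of -3.06 (SE 0.73, edgeR adjusted p = 0.015) was the lowest in complex IV. COX7B (ENSSSCG00000032129), a small membrane subunit, had 181 and 259 CPM in MNB, 234 and 257 in MN-Exp, 635 and 3307 in MN-Ctrl and 114 and 123 in NP (log2 fold change -3.01, SE 0.71, edgeR adjusted p = 0.0135). COX8A (ENSSSCG00000013046), a small membrane subunit, had 274 and 411 CPM in MNB, 364 and 394 in MN-Exp, 747 and 3518 in MN-Ctrl and 169 and 156 in NP (log2 fold change -2.49, SE 0.68, edgeR adjusted p = 0.0261). These genes shared 1 pattern: MN-Ctrl on top by a wide margin in replicate 2, NP at the bottom, and MNB beside MN-Exp. COX7A2L (ENSSSCG00000008466), which ties complexes III and IV into supercomplexes, had 175 and 207 CPM in MNB, 255 and 249 in MN-Exp, 331 and 1261 in MN-Ctrl and 125 and 133 in NP and missed the threshold (log2 fold change -1.66, SE 0.57, edgeR adjusted p = 0.0638). NDUFA4 (ENSSSCG00000024313), first named for complex I, had 171 and 188 CPM in MNB, 152 and 202 in MN-Exp, 133 and 564 in MN-Ctrl and 141 and 130.3 in NP. It was called in none of the 6 comparisons, and its MN-Ctrl replicate 1 lay below both MN-Exp libraries.

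In complex V a catalytic head is driven by a rotor in the membrane. ATP5F1A (ENSSSCG00000004499, chromosome 1, 95738789 to 95750835), the alpha subunit of the head, had 731 and 655 CPM in MNB, 879.9 and 846 in MN-Exp, 1718 and 1959 in MN-Ctrl and 311 and 296 in NP. On the TMM scale the groups did not overlap and the MN-Ctrl pair was close, but the difference from MN-Exp was not called (log2 fold change -1.09, SE 0.44, edgeR adjusted p = 0.102). On library totals ATP5F1A had 1442 and 881 CPM in MN-Ctrl and 1011 and 921 in MN-Exp, so replicate 2 of MN-Ctrl lay below both MN-Exp libraries. ATP5MC1 (ENSSSCG00000017544, chromosome 12, 25110540 to 25113481), one of the genes for the c subunit of the rotor ring, had 292 and 316 CPM in MNB, 267 and 264 in MN-Exp, 766 and 2768 in MN-Ctrl and 143 and 126 in NP (log2 fold change -2.73, SE 0.61, edgeR adjusted p = 0.0103). ATP5MC3 (ENSSSCG00000015973, chromosome 15, 81091037 to 81094297), which encodes the same mature c protein, had 151 and 168 CPM in MN-Exp and 533 and 1548 in MN-Ctrl and the smallest adjusted p of the 70 genes in this comparison (log2 fold change -2.70, SE 0.54, edgeR adjusted p = 0.00606). Reads from such related genes, and from the processed pseudogenes that small subunit genes often have, may have been counted on either copy, since the counting settings are not given in the sources used here. ATP5ME (ENSSSCG00000023903, chromosome 8, 112092 to 113526), subunit e at the dimer interface, had 135 and 166 CPM in MNB, 188 and 189 in MN-Exp, 393 and 3347 in MN-Ctrl and 127 and 104 in NP. Its log2 fold change of -3.31 (SE 0.82, edgeR adjusted p = 0.0175) was the lowest of the 70, and its MN-Ctrl libraries were 8.52-fold apart. ATP5IF1 (ENSSSCG00000027072, chromosome 6, 85307242 to 85309211), which stops the synthase from running backwards, had 35.6 and 59.8 CPM in MNB, 54.8 and 62.7 in MN-Exp, 85.7 and 564 in MN-Ctrl and 37.6 and 25.9 in NP. It was called lower in MN-Exp (log2 fold change -2.47, SE 0.72, edgeR adjusted p = 0.0339), but not without MN-Ctrl replicate 2 (log2 fold change -0.62, edgeR adjusted p = 0.24).

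The 2 MN-Ctrl libraries were then set against MN-Exp one at a time. Replicate 1 lay above both MN-Exp libraries in 57 of the 70 genes (37.5% of all tested genes) with a median difference of 0.72 on the log2 CPM scale. Replicate 2 did so in 67 of the 70 (39.6% of all tested genes) with a median of 2.34. On library totals replicate 1 lay above both MN-Exp libraries in 46 of the 70 and below both in 21 (25.3% and 60.2% of all tested genes). Replicate 2 lay above both in 57 and below both in 10 (18.1% and 72.8% of all tested genes). With replicate 2 left out, so that replicate 1 was taken to vary like the other groups, 35 genes were called lower in MN-Exp (11.7% of all tested genes) with a median of -0.80. Of these, 30 were also called with both libraries, and the calls fell on 8 subunits of complex I, 4 of complex II, 5 of complex III, 8 of complex IV and all 10 of complex V. With replicate 1 left out, 62 were called lower (19.2% of all tested genes) with a median of -2.34.

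Between the 2 MN-Ctrl libraries, replicate 2 was higher in 66 of the 70 genes and more than 2-fold higher in 53 (75.7%, against 19.0% of all tested genes), with a median gap of 2.06 on the log2 scale against -0.06 over all tested genes. The same gap had a median of 0.25 in MNB, 0.04 in MN-Exp and -0.11 in NP. Subunits of the same complex differed in this ratio of replicate 2 to replicate 1. In complex I it ran from 0.572 for NDUFS1 to 7.01 for NDUFB1, with 0.941 for NDUFV1 and 1.37 for the accessory subunit NDUFA9 but 3.18 for NDUFV2, a core subunit. In complex II it was 0.461 for SDHA and 1.90 for SDHB. In complex III it was 1.76 and 1.77 for UQCRC1 and UQCRC2 and 6.64 for UQCR10. In complex V it was 1.14 for ATP5F1A, 3.44 for ATP5F1C, the gamma subunit of the central stalk, and 8.52 for ATP5ME. By complex, the median ratio was 4.37, 1.98, 4.07, 4.65 and 3.53 for complexes I to V and 3.12 for the assembly factors. COX4I2, SDHA, NDUFS1 and NDUFV1 were the genes lower in replicate 2.

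The gap was larger in genes of short span, the length of the gene in the genome, which was known for 57 of the 70. Those 57 genes had a median span of 7166 bases, against 30888 for the 11654 tested genes with a span. Over all tested genes the median gap fell from 1.48 at spans up to 2000 bases to -0.51 above 50000 bases. For these genes it was 2.70 up to 2000 bases (4 genes), 2.22 from 2001 to 5000 (11 genes), 2.31 from 5001 to 10000 (17 genes), 1.78 from 10001 to 20000 (13 genes) and 0.54 from 20001 to 50000 (11 genes). At each of these spans the nuclear oxidative phosphorylation genes had a larger gap than all tested genes of the same span, whose medians were 1.48, 0.72, 0.38, 0.07 and -0.24. The Spearman correlation of span with the gap was -0.513 over the 57 genes and -0.320 over the 11654, across genes that share the same 2 libraries and are not independent. The difference between MN-Ctrl replicate 1 and MN-Exp had no such slope (0.008 over the 57 genes and -0.040 over all). MNB also had a slope over the 57 genes (-0.525, against -0.083 over all) on a far smaller gap. With a span trend removed from each library, 31 of the 57 genes were called lower in MN-Exp than in MN-Ctrl (median -1.61), against 31 of the 57 (median -1.74) on the TMM scale. Of the 9 enterocyte markers, 3 were higher and 6 lower in replicate 2 than in replicate 1, and the part of cell makeup, RNA state or library handling in the gap was not tested.

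**Figure D3:**
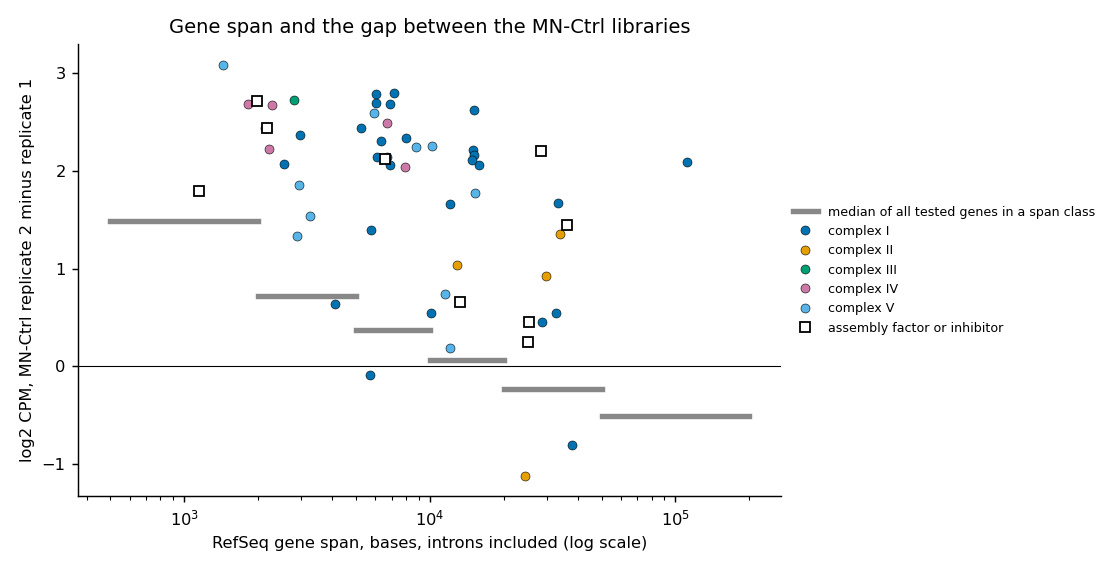
Difference between MN-Ctrl replicates 2 and 1 (log2 CPM) against gene span in bases (log axis) for the 57 genes with a span, by complex, with grey bars at the median of all tested genes in each span class. The grey bars step down from 1.48 to -0.51 with span, and most points lie above the bar of their class.

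MN-Ctrl was next compared with MNB, which asks how the control neobladder mucosa stands to that of the bladder it replaces. Of the 70 genes, 51 were higher in MN-Ctrl and 0 lower (11.2% and 11.1% of all tested genes), with a median log2 fold change of 2.12 against -0.11. Both MN-Ctrl libraries lay above both MNB libraries in 61 of the 70, against 27.5% of all tested genes. The calls covered 22 of 28 complex I subunits, 3 of 4 in complex II, 6 of 6 in complex III, 9 of 13 in complex IV, 10 of 10 in complex V and ATP5IF1, and 0 of the 8 assembly factors (smallest edgeR adjusted p 0.0609, 4 at an unadjusted p under 0.05). COX5B was 3.22 higher on the log2 scale (SE 0.80, edgeR adjusted p = 0.0172), COX7A2 3.56 higher (SE 0.75, edgeR adjusted p = 0.00798) and ATP5ME 3.64 higher (SE 0.83, edgeR adjusted p = 0.0119). ATP5F1A, not called against MN-Exp, was called here at 1.41 (SE 0.44, edgeR adjusted p = 0.0445), but not on library totals (log2 fold change 0.50, edgeR adjusted p = 0.377).

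Left-out libraries mattered in this comparison too. Without MN-Ctrl replicate 2, 43 genes were higher (10.9% of all tested genes) and NDUFA4L2 was lower, with a median of 0.99, and 40 of these 44 were called with both libraries. Without replicate 1, 63 were higher (19.0% of all tested genes, median 2.74). Without either MNB library edgeR called none of the 70 (45 and 51 at an unadjusted p under 0.05, medians 2.02 and 2.20), where 8.14% and 9.48% of all tested genes were called. Fitted on these 2 groups alone, 2 of the 70 were called, where 14.2% of all tested genes were. On library totals 14 were higher and NDUFA4L2 lower (median 1.004), where the split of all calls moved from 1857 higher and 1829 lower to 763 higher and 3326 lower. This comparison and that of MN-Exp with MN-Ctrl share the MN-Ctrl libraries.

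MN-Exp and MNB differed in none of the 70 genes by edgeR or DESeq2, and 0 had an unadjusted p under 0.05 in edgeR. In all genes tested, 0.0423% were called higher and 0.0544% lower. The 70 log2 fold changes ran from -0.79 (NDUFS8) to 0.78 (NDUFB2). NDUFS8 rested on few counts, 5 and 7 in MNB and 4 and 2 in MN-Exp. The smallest edgeR adjusted p was 0.891, for UQCRFS1. Over the 70 genes the median log2 fold change was 0.29, against 0.02 over all tested genes, and the median SE was 0.57. The SE came from 1 model of all 4 groups, so it took in the spread of the MN-Ctrl pair, which is outside this comparison. With the 2 groups fitted alone, edgeR called 0 of the 70 and gave 5 an unadjusted p under 0.05. In that fit 3.28% of all tested genes were called. At the SE of the main model the differences seen here were not detectable, which does not show that the levels were alike. Both MN-Exp libraries lay above both MNB libraries in 39 of the 70, against 24.8% of all tested genes. These were 20 of 28 subunits in complex I, 3 of 4 in complex II, 4 of 6 in complex III, 4 of 13 in complex IV, 6 of 10 in complex V and 2 of 8 assembly factors. UQCRFS1, for example, had 124 and 136 CPM in MNB and 189 and 209.6 in MN-Exp (log2 fold change 0.62, SE 0.50). NDUFB2, a membrane arm subunit of complex I, had 81.0 and 112 CPM in MNB and 158 and 173 in MN-Exp (log2 fold change 0.78, SE 0.68, edgeR adjusted p = 0.913). The cell cycle markers, at 152 and 104 CPM in MNB, were at 26.9 and 13.5 in MN-Exp, and their part in these differences was not tested.

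Peritoneum, the source tissue of the graft, had the lowest sums in every complex. With MN-Exp and NP fitted alone, edgeR called 47 of the 70 genes higher in MN-Exp and 3 lower. That fit called 36.9% of all tested genes in either direction. The main model of the 4 groups called 5 of the 70 higher in MN-Exp and 2 lower (12.4% and 11.8% of all tested genes). It took in the spread of the MN-Ctrl pair, whose part in the number of calls was not tested. The median log2 fold change in the main model was 0.90 against -0.01 over all tested genes. In 64 of the 70 both MN-Exp libraries lay above both NP libraries, against 35.4% of all tested genes. The genes called higher were COX5A (1.64, SE 0.45, edgeR adjusted p = 0.0233), ATP5F1A (1.51, SE 0.44, edgeR adjusted p = 0.0321), UQCRC2 (1.50, SE 0.41, edgeR adjusted p = 0.0245), UQCRC1 (1.46, SE 0.45, edgeR adjusted p = 0.0389) and SDHAF2 (1.43, SE 0.39, edgeR adjusted p = 0.0247). ATP5F1A belongs to the head of the synthase, and UQCRC1 and UQCRC2 are the core proteins of complex III. Each of these 5 calls was lost with any 1 of the 4 libraries left out (edgeR adjusted p up to 0.204), except that SDHAF2 was still called without NP replicate 2 (edgeR adjusted p = 0.043). SDHAF2 (ENSSSCG00000013082, chromosome 2, 10074965 to 10088185), which attaches flavin to SDHA, had 45.4 and 48.3 CPM in MNB, 58.8 and 60.7 in MN-Exp, 66.6 and 106 in MN-Ctrl and 16.5 and 27.9 in NP. The genes called lower in MN-Exp were COX4I2 and NDUFS8. NDUFS8 (ENSSSCG00000037455), an iron-sulfur subunit of complex I, rested on few counts, with 0.403 and 0.522 CPM in MNB, 0.339 and 0.185 in MN-Exp, 0.652 and 1.12 in MN-Ctrl and 1.42 and 4.63 in NP. It passed the low-count filter through NP and was not called without NP replicate 2 (log2 fold change -2.37, edgeR adjusted p = 0.207) or without either MN-Exp library (edgeR adjusted p = 0.123 and 0.201). In all, 1 or 2 of the 70 genes were called with any 1 of the 4 libraries left out.

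MN-Ctrl against NP gave 61 genes higher and 2 lower (21.6% and 20.6% of all tested genes), with a median of 2.85 against -0.06. The calls took in 27 of 28 complex I subunits, all 4 of complex II, all 6 of complex III, 9 of 13 in complex IV, all 10 of complex V and ATP5IF1. Assembly factors were called here as well, 4 of 8: SDHAF2 and the complex I factors NDUFAF3, NDUFAF4 and NDUFAF8. NDUFAF4 (ENSSSCG00000004342), which acts early in building complex I, had 10.5 and 7.16 CPM in MNB, 7.36 and 8.43 in MN-Exp, 7.39 and 32.7 in MN-Ctrl and 3.05 and 3.65 in NP. NDUFAF8 (ENSSSCG00000039183) had 21.2 and 28.4 CPM in MNB, 23.4 and 25.2 in MN-Exp, 22.0 and 119.8 in MN-Ctrl and 17.3 and 11.4 in NP. NDUFAF3 (ENSSSCG00000011371), the partner of NDUFAF4, had 45.2 and 63.6 CPM in MNB, 72.2 and 62.7 in MN-Exp, 69.7 and 243 in MN-Ctrl and 50.8 and 50.2 in NP. In these 3 genes MN-Ctrl replicate 1 was within or close to the range of MN-Exp and replicate 2 alone stood apart. Without replicate 2 none of the 3 was called (edgeR adjusted p = 0.142 for NDUFAF3, 0.0766 for NDUFAF4 and 0.154 for NDUFAF8). On library totals the split of all calls in this comparison moved from 3577 higher and 3416 lower to 1727 higher and 5199 lower.

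With NP and MNB fitted alone, edgeR called 32 of the 70 genes lower in NP and 1 higher, where 34.7% of all tested genes were called. DESeq2 on the 4 groups called 5 lower and 2 higher, where 26.8% of all tested genes were called. The main edgeR model of the 4 groups called COX4I2 higher in NP than in MNB and COX5A lower (9.93% and 11.1% of all tested genes). The median log2 fold change over the 70 genes was -0.61 against 0.01 over all, and 14 had an unadjusted p under 0.05. Both NP libraries lay below both MNB libraries in 55 of the 70, against 35.3% of all tested genes. COX5A fell by 1.70 (log2, SE 0.45, edgeR adjusted p = 0.0219), but not past the threshold with any library of the 2 groups left out (edgeR adjusted p from 0.104 to 0.132).

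COX4I2 was one of the 3 genes of 13 tested in complex IV with a positive log2 fold change for NP against MNB, and the one called. This second form of subunit 4 is known from lung and from the contractile cells around small vessels, where it takes part in oxygen sensing. COX4I2 (ENSSSCG00000038384) had 3.23 and 7.76 CPM in MNB, 4.74 and 4.54 in MN-Exp, 3.04 and 1.68 in MN-Ctrl and 71.3 and 47.5 in NP. Both NP libraries lay above all 6 others, and MNB spanned both MN-Exp values. The log2 fold change was 3.43 for NP against MNB (SE 0.51, edgeR adjusted p = 0.00121), -3.68 for MN-Exp against NP (SE 0.52, edgeR adjusted p = 0.000777) and -4.61 for MN-Ctrl against NP (SE 0.56, edgeR adjusted p = 0.000176), comparisons that share the NP libraries. All 3 calls held under each of the 10 alternatives run, with edgeR or DESeq2 adjusted p up to 0.0191, 0.0163 and 0.00151. In counts, COX4I2 stood at 1.02 and 0.749 times COX4I1 in NP, 0.0388 and 0.0841 in MNB, 0.0489 and 0.0567 in MN-Exp, and 0.0143 and 0.00238 in MN-Ctrl. The 3 endothelial markers measured (of 4) moved the same way, with 1856 and 1385 CPM in NP and 93.2 to 406 elsewhere, as did the 5 adipocyte markers, with 1170.3 and 767 CPM in NP and 2.39 to 69.1 elsewhere. The 5 smooth muscle markers had 734 and 751 CPM in NP, 3022 to 3809 in MNB and MN-Exp and 579.8 and 415 in MN-Ctrl. The part of these cells in the COX4I2 level was not tested.

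**Figure D4:**
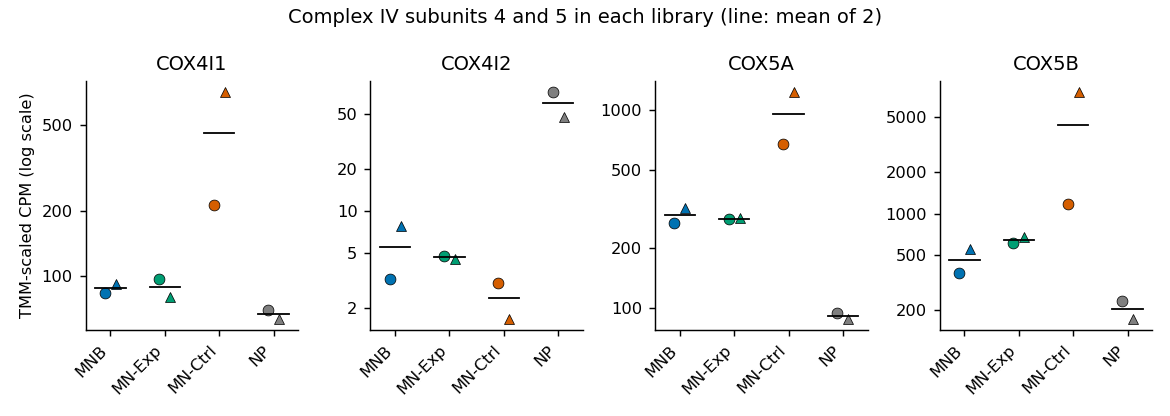
TMM-scaled CPM (log axes, 1 scale per panel) of COX4I1, COX4I2, COX5A and COX5B in each library, with replicate 2 as a triangle and a line at the mean of each group's 2 libraries. COX4I2 is highest in NP, at 71.3 and 47.5 CPM, while the 3 others are lowest there and highest in MN-Ctrl.

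NDUFA4L2 (ENSSSCG00000027621, chromosome 5, 22540482 to 22548418), a relative of NDUFA4 known to be induced by low oxygen, was highest in NP as well, and with COX4I2 and NDUFS8 it made up the 3 of the 70 genes for which this held. It had 4.84 and 7.46 CPM in MNB, 3.05 and 4.26 in MN-Exp, 1.09 and 5.05 in MN-Ctrl and 11.8 and 10.8 in NP. It was called for MN-Ctrl against NP (log2 fold change -1.93, SE 0.67, edgeR adjusted p = 0.0406), a call lost without MN-Ctrl replicate 1 (-1.16, edgeR adjusted p = 0.113) or either NP library (edgeR adjusted p = 0.108 and 0.0845). In counts, NDUFA4L2 stood at 0.0836 and 0.0827 times NDUFA4 in NP and at 0.00818 to 0.0397 times in the 6 other libraries.

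Genes outside the naming rule were read from lists chosen by function. Cytochrome c (CYCS), which carries electrons from complex III to complex IV, and cytochrome c1 (CYC1) were both lower in MN-Exp than in MN-Ctrl. CYC1 is a complex III subunit that the naming rule leaves out, so the complex III sums and counts do not include it. CYCS had 175 and 109.8 CPM in MNB, 104 and 175 in MN-Exp, 409 and 1537 in MN-Ctrl and 36.0 and 24.6 in NP (log2 fold change -2.80, edgeR adjusted p = 0.0126). CYC1 had 275 and 260.2 CPM in MNB, 312 and 298 in MN-Exp and 538 and 1102 in MN-Ctrl (log2 fold change -1.43, edgeR adjusted p = 0.0481). Both were also lower in NP than in MNB (edgeR adjusted p = 0.0312 for CYCS and 0.0365 for CYC1). Of 30 assembly factors named outside the rule, 7 were lower and 0 higher in MN-Exp than in MN-Ctrl (median -0.81), where 11.3% and 10.4% of all tested genes were.

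Of the 12 mitochondrially encoded subunits tested, 0 were called between MN-Exp and MN-Ctrl by edgeR, and 0 had an unadjusted p under 0.05 (median -0.23). The medians of the MN-Ctrl libraries lay on either side of MN-Exp. Replicate 1 was above both MN-Exp libraries in 12 of 12 (37.5% of all tested genes), with a median of 0.81 on the log2 CPM scale. Replicate 2 was above both in 3 of 12 (39.6% of all tested genes), which were COX1, COX2 and COX3, with a median of -0.88. The difference between nuclear and mitochondrially encoded subunits was not tested. Among complex I genes, ND4 had 1039 and 1161 CPM in MN-Exp and 1851 and 69.04 in MN-Ctrl. Among complex IV genes, COX1 had 1856 and 2048 CPM in MN-Exp and 3283 and 5480.3 in MN-Ctrl, and it was the one mitochondrially encoded gene called between MN-Ctrl and MNB.

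The citric acid cycle, which supplies NADH and succinate, had 3 of 13 genes lower and 0 higher in MN-Exp than in MN-Ctrl (11.3% and 10.4% of all tested genes). Among these were SUCLG1 and SUCLG2, subunits of succinate-CoA ligase. SUCLG1 had 381 and 377 CPM in MN-Exp and 714 and 1556 in MN-Ctrl (log2 fold change -1.58, edgeR adjusted p = 0.0391). The medians of the 2 MN-Ctrl libraries over MN-Exp were 0.85 and 0.75 on the log2 CPM scale, with 13 and 9 of the 13 genes above both MN-Exp libraries (37.5% and 39.6% of all tested genes). Of 12 regulators of mitochondrial biogenesis, PPRC1 was higher and ESRRA lower in MN-Exp, near the 10.4% and 11.3% of all tested genes. For these regulators both MN-Ctrl libraries had medians near MN-Exp (-0.01 and -0.02). Of 14 glycolysis genes, the hexokinases HK1 and HK2 were higher in MN-Exp and GAPDH was lower, again near the 10.4% and 11.3% of all tested genes. HK2 had 126 and 249 CPM in MN-Exp and 46.0 and 15.3 in MN-Ctrl (log2 fold change 2.60, edgeR adjusted p = 0.0204). The medians of the MN-Ctrl libraries over MN-Exp for glycolysis were -0.13 and -0.31, close to those of all tested genes (-0.12 and -0.22).

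**Figure D5:**
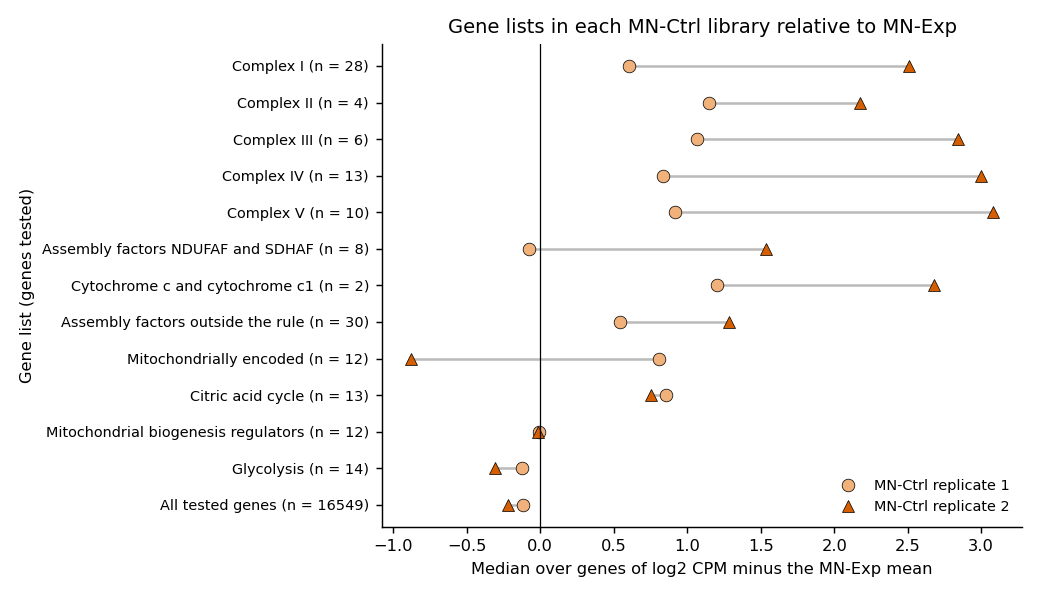
Median difference of each MN-Ctrl library from the MN-Exp mean (log2 CPM) for the structural subunits by complex, the assembly factors, the neighbouring lists and all tested genes. The nuclear complexes lie above 0 in both libraries and further in replicate 2, while the mitochondrially encoded genes lie at 0.81 in replicate 1 and -0.88 in replicate 2.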

How the data were processed

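Total RNA of 8 libraries was extracted (RNeasy Plus), converted with Smart-seq2, made into TruSeq libraries and sequenced on an Illumina HiSeq X instrument, per the labels' protocols. The authors deposited whole-number read counts per Ensembl gene, whose making involved HTSeq 0.11.1, HISAT2, Trim Galore and the genome build Sscrofa11.1, per the submitters' processing notes; their settings and the annotation release are not given in the sources used here. No depth correction had been made before deposit. The main fit did not pair libraries by replicate number.

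The members and lists were chosen with earlier results of these data known. Counts were tested with edgeR 4.0.16 (R 4.3.3; filterByExpr, TMM, robust quasi-likelihood fit) in 1 model of the 4 groups with 4 residual degrees of freedom, and p-values were adjusted over all 16549 tested genes by Benjamini-Hochberg. Log2 CPM used a prior count of 2. The fit was tested on simulated counts that gave every library the same dispersion. The simulation therefore did not carry the wider spread of the MN-Ctrl pair. Values in every library were given for COX5B, ATP5IF1, the isoform genes of complex IV, the 2 structural genes of highest mean level in each complex, up to 3 called genes of largest fold change in each direction of each comparison, and assembly factors called anywhere; other members were named after their values were seen. Gene positions came from the RefSeq table of Sscrofa11.1, which matched 59 of the 73. Alternatives were DESeq2 1.42.0, other scalings, no filter, a replicate block, the 2 groups alone and leaving out each library.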

Additional observations from a re-analysis of the deposited data

How the results depend on the processing

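With 2 libraries a group, and 2 MN-Ctrl libraries far apart, counts of calls moved much more than directions: no median over the 70 genes changed sign. On library totals alone, MN-Exp against MN-Ctrl gave 6 calls (median -0.79) and MN-Ctrl against MNB 15 (median 1.004). Of all tested genes, 21.9% and 24.7% were called there. The medians were 0.77 for MN-Exp against NP and 1.66 for MN-Ctrl against NP. Fitting the 2 compared groups alone gave 3, 2, 50 and 33 calls for MN-Exp against MN-Ctrl, MN-Ctrl against MNB, MN-Exp against NP and NP against MNB. The shares of all tested genes called in these fits were 14.8%, 14.2%, 36.9% and 34.7%. For MN-Exp against NP, DESeq2 gave 13 calls and no low-count filter 15 (29.8% and 17.2% of all tested genes). Among genes with a span it had 3 calls under TMM (24.2% of all tested genes), and the span offset gave a median of 0.58. For NP against MNB, DESeq2 gave 7 calls and no filter 6 (26.8% and 15.7% of all tested genes). Genes with a span had 0 both under TMM and with the span offset (21.1% and 22.6% of all tested genes).

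With each library left out in turn, calls ran from 0 to 62 for MN-Exp against MN-Ctrl (median -2.34 to -0.80), 0 to 63 for MN-Ctrl against MNB (0.99 to 2.74), 1 to 2 for MN-Exp against NP (0.84 to 0.94) and 47 to 67 for MN-Ctrl against NP (1.67 to 3.42). NP against MNB had 1 call (-0.73 to -0.49), and MN-Exp against MNB had 0 (0.15 to 0.38). The cause of these changes was not tested. For each comparison, the libraries left out were those of its own 2 groups. Comparisons among MN-Exp, MNB and NP thus kept both MN-Ctrl libraries in the model. The lone library left in a group was taken to vary like the other groups.

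Between groups, the deviations of libraries with the same replicate number had correlations of -0.080 to 0.091. With 2 libraries a group, these values cannot show whether equal replicate numbers mark the same animal. The labels do not state it, so the pairing is unknown. A replicate block gave 33 calls for MN-Exp against MN-Ctrl, 45 for MN-Ctrl against MNB and 5 for MN-Exp against NP. The shares of all tested genes were 19%, 19.7% and 22.1%. It gave 63 for MN-Ctrl against NP, 2 for NP against MNB and 0 for MN-Exp against MNB (38.7%, 19.1% and 0.0846% of all tested genes).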
